A study of Mus musculus with 8 samples.

Results

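The 8 genes described here are the liver X receptor (LXR) pair *Nr1h2* and *Nr1h3*, the sterol exporters *Abca1*, *Abcg1*, *Abcg5* and *Abcg8*, and *Pltp* and *Mylip*. They were measured in the liver of *Agpat3* WT and *Agpat3* KO mice, 4 per genotype, all male, 10 weeks old and of C57BL/6 background. The KO mice lack *Agpat3* in the whole body and not only in the liver, and the allele is not given in the sources used here. AGPAT3 is the acyltransferase that places docosahexaenoic acid (DHA) into the precursor of phospholipids. Each mouse gave 1 one-color Agilent array. The members were taken as the probes whose transcript accession belongs to 1 of the 8 genes, which gave 11 of the 56605 probes and 8 of the 22911 named genes. *Nr1h2*, *Nr1h3* and *Abca1* had 2 probes each and the other 5 genes 1 each, and all 11 probes were well above background on all 8 arrays.

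LXRs are nuclear receptors that sense oxidized cholesterol. They bind DNA together with a retinoid X receptor (RXR), and when a sterol ligand is present they raise genes that move cholesterol out of cells and into bile, and also *Srebf1*, the gene of the lipogenic factor SREBP1. In liver the same receptors stand between cholesterol disposal and fatty acid synthesis.

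*Pltp* was the member that changed. Its signal was 2.77-fold higher in KO liver (95% interval from 2.15 to 3.56), and no KO mouse overlapped a WT mouse. The other 7 members had log2 changes between -0.12 and 0.28, with 4 above and 3 below 0, and none of them was called. The rule for a call was a fold change above 1.5 in either direction together with a limma adjusted p (Benjamini-Hochberg over 29067 tested probes) below 0.2, which 1.67% of all tested probes met, 0.939% in the higher direction. *Pltp* also passed at an adjusted p below 0.05, as did 0.403% of all tested probes. The median log2 change of the 8 members was 0.03, against -0.03 over all tested probes.

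The arrays lay on 1 slide in 1 scan, with WT in row 1 and KO in row 2, so row and genotype cannot be told apart. Between 29885 and 31886 probes were well above background per array, and no spot was saturated. The brighter *Agpat3* probe was lower in KO liver by a log2 change of -6.12 (standard error 0.14, limma adjusted p = 4.46e-07), as the labels state. Hepatocyte markers had log2 changes between -0.12 and 0.13, with 0 of 6 called. Of the markers of other cells, none was called among 6 of sinusoidal endothelial cells (median log2 change 0.01), 7 of stellate cells (-0.45), 3 tested of cholangiocytes (-0.14), 5 tested of lymphocytes and neutrophils (-0.22) and 3 tested of pancreatic acinar cells (-0.15). The summed level of the stellate markers was 39.4 times the 75th percentile in WT replicate 2 and 19.0 to 20.6 times in the other WT mice, against 17.2 to 19.4 times in KO. That of the lymphocyte and neutrophil markers was 6.33 to 9.29 times in WT and 5.05 to 6.58 times in KO. The acinar genes *Cpa1*, *Pnlip* and *Cpb1* were well above background on 0 arrays, *Cela1* had a log2 change of -0.54 (limma adjusted p = 0.292) and *Cel* one of 0.45 (limma adjusted p = 0.383). For *Cela1* all 4 KO mice lay below all 4 WT mice, and 8.86% of all tested probes had genotypes that did not overlap. The summed level of the 3 tested acinar markers was 33.1 to 46.4 times in WT and 19.3 to 33.2 times in KO. The part of these cells in the results was not tested. Signals below are log2 intensities relative to each array's 75th percentile, and they are compared between mice for 1 probe and never between genes, because probes differ in brightness. A lower signal in a whole liver can mean fewer cells of a type or less RNA per cell, and these cannot be told apart.

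**Figure D1:**
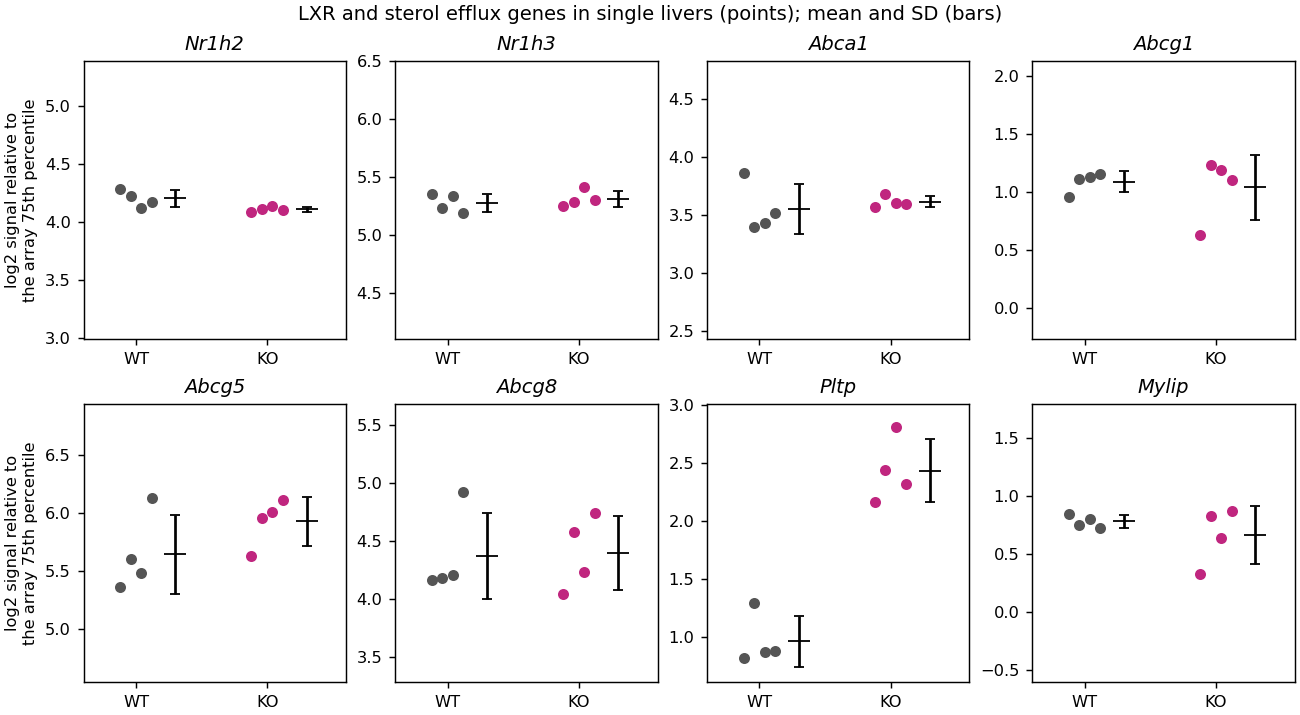
Log2 signal relative to each array's 75th percentile (y axis) for the brightest probe of each of the 8 genes, with 1 point per mouse in the order of replicates 1 to 4 for WT (gray) and KO (magenta), and the mean and SD as bars. The axes of all panels span the same range of log2 units. The KO points of *Pltp* (2.17 to 2.81) lie above all its WT points (0.82 to 1.29), and in the other 7 panels the genotypes overlap.

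The stretches of genome just before the starts of some members are printed here to show where the motifs searched lie. They are reference sequences of RefSeq on build GRCm38.p6, given 5′ to 3′ on the strand of the gene for the member that changed, *Pltp*, for *Abca1*, a standard LXR target, and for the stretch that lies between the starts of the neighbors *Abcg5* and *Abcg8*. Capitals mark matches to the motifs searched.
*Abca1*, chr4:53159896-53160145, minus strand: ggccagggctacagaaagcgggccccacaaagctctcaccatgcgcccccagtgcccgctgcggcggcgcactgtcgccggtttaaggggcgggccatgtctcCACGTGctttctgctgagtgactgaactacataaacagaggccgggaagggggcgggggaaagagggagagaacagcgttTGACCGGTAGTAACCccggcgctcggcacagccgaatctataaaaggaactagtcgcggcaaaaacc
*Pltp*, chr2:164857709-164857958, minus strand: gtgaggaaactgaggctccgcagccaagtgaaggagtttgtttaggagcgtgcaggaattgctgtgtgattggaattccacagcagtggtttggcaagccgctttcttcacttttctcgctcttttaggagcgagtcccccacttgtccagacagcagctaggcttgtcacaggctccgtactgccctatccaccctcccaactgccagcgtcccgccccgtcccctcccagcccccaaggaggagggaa
*Abcg5* to *Abcg8*, chr17:84683012-84683120, plus strand: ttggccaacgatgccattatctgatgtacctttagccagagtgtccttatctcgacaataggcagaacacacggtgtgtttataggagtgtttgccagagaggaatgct

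The windows searched ran from 250 bases before to 50 bases after each start, on both strands, and 9 windows of 7 of the genes were in the table (*Abcg1* had no entry). LXR with RXR binds a direct repeat of a half-site with a spacing of 4 bases (DR4). A relaxed form of it, 2 copies of GGTNA with 5 bases of any kind between them, matched in the window of *Abca1* on the strand opposite to the gene, at positions -67 to -53 from the start, and in 0.718% of all 32851 windows. The strict form, 2 copies of AGGTCA with 4 bases between them, every match of which also matches the relaxed form, was found in no member window and in 0.0152% of all. The half-site AGGTCA, which is part of the strict form, was in no member window and in 16.3% of all. The E-box CACGTG matched once, in the window of *Abca1*, and in 7.15% of all, and the sterol element core TCACNCCAC matched in no member window and in 1.24% of all. A match is a description of letters, and whether a factor binds there was not tested. Sequence outside these windows was not searched. *Abcg8* had 2 windows, and for the start nearer to *Abcg5*, which lies 110 bases from it on the opposite strand, the windows of both genes share 209 bases.

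Among the receptors, *Nr1h3* encodes LXRα, the form that prevails in liver, and *Nr1h2* encodes LXRβ, which is expressed widely. The brighter *Nr1h3* probe read 5.35, 5.24, 5.34 and 5.19 in the WT mice, against 5.25, 5.29, 5.42 and 5.30 in the KO mice. These ranges overlapped, and the log2 change was 0.04 (95% interval from -0.13 to 0.20, limma adjusted p = 0.867). The dimmer *Nr1h3* probe also gave 0.04 (limma adjusted p = 0.878). The interval of the brighter probe ends at 1.15-fold, so a change of *Nr1h3* mRNA of 1.5-fold lies outside it.

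The brighter *Nr1h2* probe read 4.29, 4.23, 4.12 and 4.18 in WT and 4.09, 4.11, 4.14 and 4.11 in KO. KO replicate 3 lay within the WT range and the other 3 KO mice just below it. The log2 change was -0.09 (95% interval from -0.24 to 0.05, limma adjusted p = 0.575), and an exact permutation test over the 70 possible assignments gave p = 0.0571 (two-sided). The dimmer *Nr1h2* probe, which names another transcript of the gene, went the other way, with a log2 change of 0.15 (limma adjusted p = 0.650). The probes of *Nr1h2* thus disagreed in sign, and the change of neither passed the test.

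*Abca1* loads cellular cholesterol and phospholipid onto lipid-poor apolipoprotein A-I, the first step in making high density lipoprotein (HDL), and *Abcg1* passes cholesterol on to HDL particles. The brighter *Abca1* probe read 3.86, 3.39, 3.43 and 3.51 in WT and 3.57, 3.68, 3.60 and 3.60 in KO. WT replicate 1 was the highest of all 8 mice, and the 4 KO mice fell inside the WT range. The log2 change was 0.06 (95% interval from -0.18 to 0.31, limma adjusted p = 0.843), and that of the dimmer probe was 0.09 (limma adjusted p = 0.803).

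*Abcg1* read 0.96, 1.11, 1.13 and 1.16 in WT and 0.63, 1.23, 1.19 and 1.11 in KO. KO replicate 1 was the lowest mouse, KO replicates 2 and 3 lay above all WT mice, and KO replicate 4 lay within the WT range. The log2 change was -0.05 (95% interval from -0.36 to 0.26, limma adjusted p = 0.911), and it was 0.09 without KO replicate 1. *Abca1* and *Abcg1* are also strongly expressed in macrophages. Of 8 Kupffer cell and macrophage markers, 0 were called higher and 1 was called lower (*Marco*, a scavenger receptor, with a log2 change of -1.22 and a limma adjusted p of 0.0983), and the median log2 change of the list was -0.08. The summed level of these markers was between 92.3 and 151 times the 75th percentile in WT and between 78.1 and 129 times in KO, so the genotypes overlapped. The lowest sum, 78.1 times, was that of KO replicate 1, the mouse lowest for *Abcg1*. That mouse was also the lowest at the dimmer *Abca1* probe (-1.81), but not at the brighter one. The part of macrophages in the *Abca1* and *Abcg1* signals was not tested.

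*Abcg5* and *Abcg8* encode the partners of 1 transporter that secretes cholesterol and plant sterols into bile. *Abcg5* read 5.36, 5.60, 5.48 and 6.13 in WT and 5.63, 5.96, 6.01 and 6.11 in KO. All 4 KO mice lay above 3 of the WT mice and below WT replicate 4, so the groups overlapped through that mouse. The log2 change of *Abcg5* was 0.28 (standard error 0.18, 95% interval from -0.12 to 0.69, limma adjusted p = 0.546).

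Without WT replicate 4 it was 0.45 with a limma adjusted p of 0.190, still under 1.5-fold and not called. *Abcg5* was the member, besides *Pltp*, whose interval reached beyond 1.5-fold, with an upper end of 1.61-fold. *Abcg8* read 4.17, 4.19, 4.20 and 4.93 in WT and 4.04, 4.58, 4.23 and 4.74 in KO. WT replicate 4 was again the highest mouse, and KO replicate 1 was the lowest.

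The log2 change of *Abcg8* was 0.03 (standard error 0.21, 95% interval from -0.46 to 0.52, limma adjusted p = 0.971), and it was 0.21 without WT replicate 4. The mice that were high in one of these half-transporter genes were high in the other. Taken as deviations from the mean of the genotype, *Abcg5* and *Abcg8* had a Pearson r of 0.90 and a Spearman rho of 0.95 over the 8 mice, the highest Pearson r of the pairs among the 8 members when all mice were used. It was 0.78 over 7 mice without WT replicate 4, and 0.71 over 6 mice without the 2 mice farthest from their mean in *Abcg5*. It was not the highest then, since without WT replicate 4 *Abcg8* and *Mylip* had 0.83, and without the 2 mice farthest in *Nr1h2*, that gene and *Pltp* had 0.91. These values describe 8 points that share the arrays and their scaling, and no test was run on them.

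**Figure D2:**
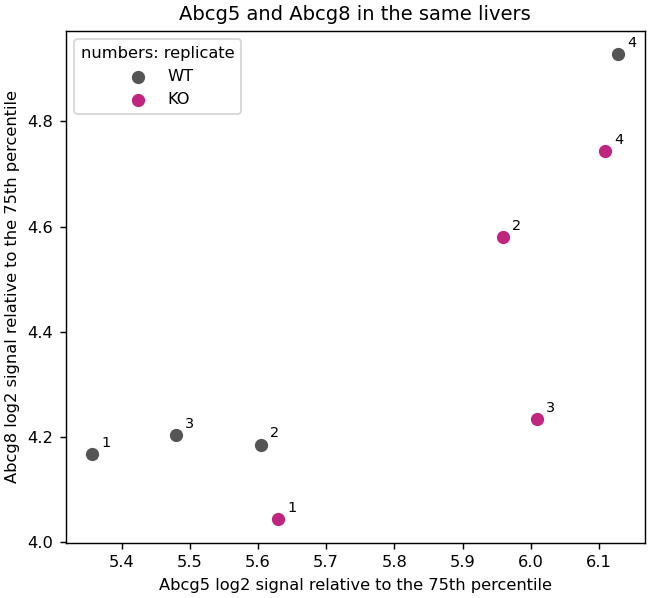
Log2 signal of *Abcg8* (y axis) against that of *Abcg5* (x axis), both relative to each array's 75th percentile, with 1 point per mouse and the replicate number beside it, WT in gray and KO in magenta. WT replicate 4 is at the top right with 6.13 for *Abcg5* and 4.93 for *Abcg8*, and WT replicates 1, 2 and 3 are at the lower left.

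*Pltp* encodes the phospholipid transfer protein, which is secreted by liver and other tissues, moves phospholipids from triglyceride-rich lipoproteins to HDL and remodels HDL particles. Its probe read 0.82, 1.29, 0.87 and 0.88 in the WT mice, against 2.17, 2.44, 2.81 and 2.32 in the KO mice. WT replicate 2 stood above the other 3 WT mice, toward KO, and KO replicate 3 was the highest of all. The mean was 0.97 ± 0.22 (SD, n = 4) in WT and 2.44 ± 0.27 (SD, n = 4) in KO.

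The log2 change of *Pltp* was 1.47 (standard error 0.16, limma adjusted p = 0.0118), and the exact permutation test gave p = 0.0286 (two-sided), the smallest that 4 mice against 4 allow. It ranked 58 among the 273 probes called higher, and 0.323% of all tested probes changed by at least as much in either direction. Separation of the groups by itself was common, since 8.86% of all tested probes had genotypes that did not overlap. With each array left out in turn the log2 change lay between 1.35 and 1.58 and stayed called. *Pltp* has 1 probe on the array, so no other probe of the gene could be set beside it.

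Whether *Pltp* and *Abca1* changed by unequal amounts was examined within each array, where the difference between the log2 signals of their brightest probes was compared between genotypes. The change of *Pltp* exceeded that of *Abca1* by 1.41 on the log2 scale, with differences from -3.04 to -2.10 in WT and from -1.40 to -0.79 in KO, which do not overlap. The exact permutation test (two-sided) gave p = 0.0286, and 0.0857 after adjustment over the 3 gene pairs examined. Since *Pltp* alone changed by 1.47 on the log2 scale, this difference largely restates its change and is no separate support. The change of *Abcg5* exceeded that of *Abcg8* by 0.26 (exact permutation p = 0.0857, adjusted 0.114), and that of *Nr1h3* exceeded that of *Nr1h2* by 0.13 (exact permutation p = 0.114, adjusted 0.114). The adjusted value of 0.0857 is the lowest that 1 pair alone at the smallest possible p can reach, so missing 0.05 after adjustment says nothing about that pair.

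*Mylip* encodes IDOL, a ubiquitin ligase induced by LXR that marks lipoprotein receptors for degradation. *Mylip* read 0.85, 0.75, 0.81 and 0.72 in WT and 0.33, 0.83, 0.63 and 0.87 in KO. The KO mice were spread more widely than the WT mice, with KO replicate 1 the lowest and KO replicate 4 the highest of the 8. The log2 change was -0.12 (95% interval from -0.39 to 0.16, limma adjusted p = 0.733). KO replicate 1 was thus the lowest mouse for *Mylip*, *Abcg1* and *Abcg8*, and also at the brighter *Nr1h2* probe and the dimmer *Abca1* probe. At the brightest probe it was the lowest KO mouse for all 8 members, but not at the dimmer *Nr1h2* and *Nr1h3* probes. Without KO replicate 1 the log2 change of *Mylip* was -0.0041.

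Over the 7 members other than *Pltp*, the limma adjusted p lay between 0.546 and 0.971 and the unadjusted p was at lowest 0.146. The 95% interval lay within 1.5-fold in both directions for 6 of the 7, the exception being *Abcg5*. Their median change regardless of sign was 0.06 on the log2 scale, against 0.11 over all tested probes. A p that misses the threshold does not show that a gene is unchanged, and these intervals give the sizes of change that the 8 arrays leave possible.

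**Figure D3:**
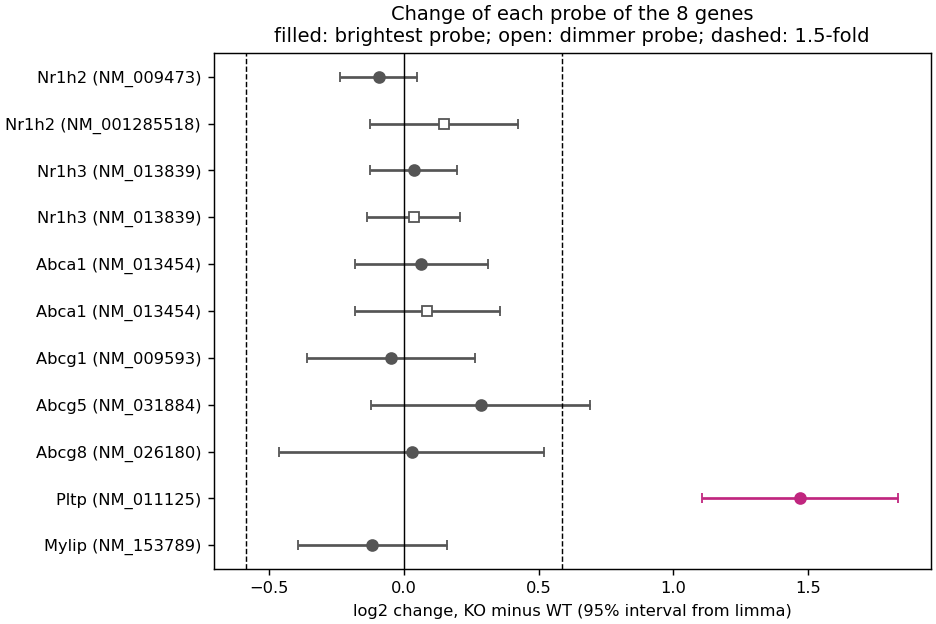
Log2 change (KO minus WT, x axis) of all 11 probes of the 8 genes with the 95% interval from limma. Filled circles are the brightest probe of a gene, open squares the dimmer one, magenta marks the called probe and dashed lines mark 1.5-fold. The *Pltp* interval, from 1.11 to 1.83, lies beyond the line, and the *Abcg5* interval crosses it at its upper end of 0.69.

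The rest of the pathway was read from lists that hold 60 genes besides the members, of which 56 were tested, 3 were called higher and 1 lower. The RXR partners and coregulators of LXR, the proteins that LXR needs on DNA, had 0 of 10 genes called and a median log2 change of -0.12. The largest changes were 0.44 for *Rxrg* (limma adjusted p = 0.388), -0.28 for *Rxrb* (limma adjusted p = 0.145) and -0.22 for *Med1* (limma adjusted p = 0.331). *Rxra*, the main RXR of liver, had a log2 change of -0.16 (limma adjusted p = 0.356). For *Rxra*, *Rxrb* and *Ncoa1* all 4 KO mice lay below all 4 WT mice, and for *Rxrg* all lay above. This separation was shown by 8.86% of all tested probes. None of these changes reached 1.5-fold, and among them only that of *Rxrb* had a limma adjusted p under 0.2.

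Of 8 enzymes that make or remove sterol ligands of LXR, 6 were tested, 1 was called lower and 0 higher, with a median log2 change of 0.06. The gene called lower was *Cyp7b1*, whose enzyme hydroxylates oxysterols and so clears them. Its brighter probe read 7.16, 6.74, 6.93 and 7.33 in WT and 5.82, 6.09, 4.04 and 6.03 in KO. The genotypes did not overlap, and KO replicate 3 was far below the others.

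The log2 change of *Cyp7b1* was -1.55 (standard error 0.43, limma adjusted p = 0.188), and that of the dimmer probe was -1.62 (limma adjusted p = 0.207, not called). Without KO replicate 3 the change was -1.06 with a limma adjusted p of 0.0533, and the call was lost with any 1 of the other 7 arrays left out. *Cyp39a1* and *Cyp46a1*, further sterol hydroxylases, had log2 changes of 0.48 and -0.32 (limma adjusted p = 0.419 and 0.322). *Ch25h* and *Sult2b1* did not pass the filter on dim probes, with signals well above background on 3 and 0 arrays.

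Of 15 other LXR target genes, 3 were called higher and 0 lower, and the median log2 change was 0.07. The 3 were *Fasn*, the fatty acid synthase, with a log2 change of 1.69 (standard error 0.13, limma adjusted p = 0.00206), *Scd1*, a desaturase of saturated fatty acids, with 0.97 (limma adjusted p = 0.0905), and *Srebf1* with 0.77 (limma adjusted p = 0.168). *Srebf1* read 6.08, 6.72, 6.63 and 6.14 in WT and 6.89, 6.87, 7.42 and 7.47 in KO, without overlap, but its call was lost with any 1 array left out. The call of *Scd1* was lost without WT replicate 2 or WT replicate 3. *Fasn* and *Scd1* also belong to the list of SREBP1 lipogenic targets, and of the 13 genes outside that list 1 was called, with a median log2 change of 0.04. Of the apolipoprotein genes of the list, *Apoe* and *Apoc1* had log2 changes of -0.10 and -0.09, and *Apoc2* had 0.36 (limma adjusted p = 0.188, under 1.5-fold). *Lpl*, the lipoprotein lipase, had 0.54 (limma adjusted p = 0.0823, under 1.5-fold), and *Lpcat3*, an acyltransferase that places arachidonic acid into phospholipids, had 0.35 (limma adjusted p = 0.295).

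The SREBP1 lipogenic targets, set beside the members for comparison, had 13 of 15 genes called higher and a median log2 change of 1.02, with *Acaca* at 0.57 and *Elovl6* at 0.86 not called. The largest changes were 3.59 for *Pnpla3*, a lipid droplet protein, 2.00 for *Thrsp*, a regulator of lipogenesis, and 1.69 for *Fasn*. *Pnpla3* was well above background on 1 of 4 WT arrays and all 4 KO arrays, so its change rests on a WT signal near background and its size is uncertain. Beside *Scd1*, the other 9 called were *Acacb*, *Acly*, *Acss2*, *Elovl5*, *Fads1*, *Fads2*, *Gpam*, *Me1* and *Mid1ip1*, with log2 changes between 0.66 and 1.31. The change of *Pltp* lay within the range of 0.57 to 2.00 of the 14 genes well above background on all 8 arrays, and the changes of the other 7 members lay below it. Both lists were chosen with earlier results of these data known, so this contrast describes the lists and no test was run on it.

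Sterol transport and HDL metabolism had 0 of 15 tested genes called and a median log2 change of 0.08. The largest changes were 0.77 for *Lipg*, the endothelial lipase (standard error 0.38, limma adjusted p = 0.429), 0.47 for *Stard4*, a cytosolic sterol carrier (limma adjusted p = 0.234), and 0.32 for *Lipa*, the lysosomal lipase (limma adjusted p = 0.0905, under 1.5-fold). *Scarb1*, the HDL receptor, and *Lcat*, which esterifies cholesterol on HDL, had log2 changes of 0.08 and -0.09. The other ABCA and ABCG transporters had 0 of 10 tested genes called, with log2 changes between -0.22 and 0.21. The largest were -0.22 for *Abca8b* and for *Abca6*, -0.21 for *Abca5* and 0.21 for *Abca9*, with limma adjusted p between 0.378 and 0.777.

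**Figure D4:**
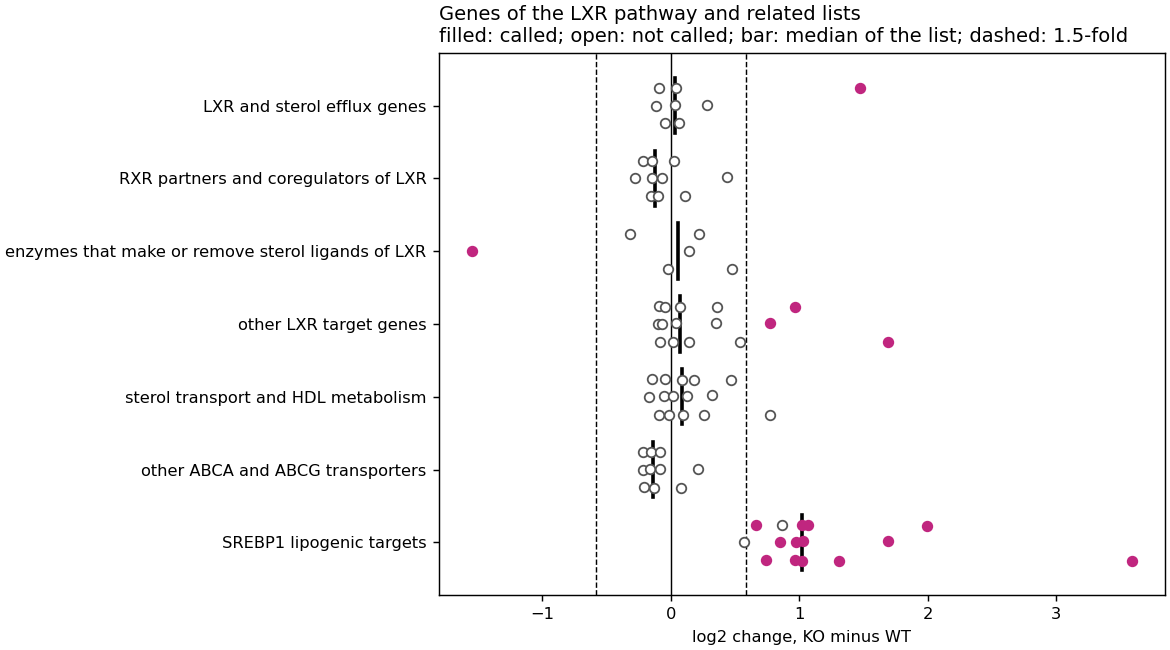
Log2 change (KO minus WT, x axis) of each tested gene at its brightest probe, by list (y axis). Filled points were called, open points were not, black bars are list medians and dashed lines mark 1.5-fold. The SREBP1 targets well above background on all 8 arrays lie between 0.57 and 2.00, with *Pnpla3*, near background in WT, beyond them. The other lists have medians between -0.14 and 0.08. Their called genes include *Pltp* at 1.47 and *Cyp7b1* at -1.55, and the other LXR target genes hold 3, the largest *Fasn* at 1.69.

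The genes whose log2 signal followed *Pltp* most closely over the 8 arrays, among 13557 others that were well above background on all of them, were *Olfr424* (Pearson r = 0.991, Spearman rho = 0.952), *Klk1b3* (0.986 and 0.905), *Klk1b8* (0.982 and 0.905), *Anks4b* (0.980 and 0.976) and *Dntt* (0.979 and 0.881). Their own log2 changes were 0.73, 0.77, 0.72, 0.45 and 3.51 in the same order. With the genotype means taken out, r with *Pltp* was 0.91, 0.87, 0.91, 0.73 and 0.83. These are the closest of many genes over 8 arrays that also share the genotype difference, and they are given as a description.

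**Figure D5:**
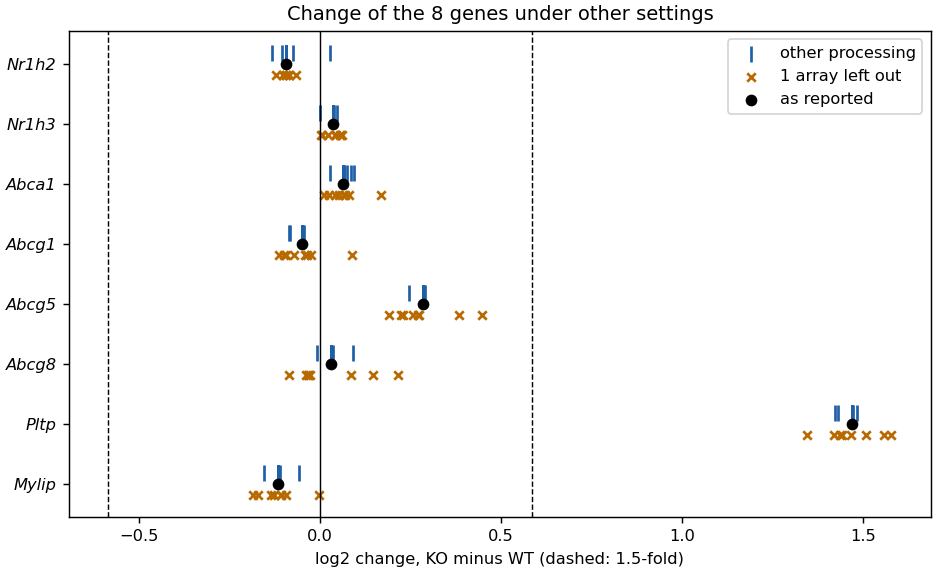
Log2 change (KO minus WT, x axis) of the 8 genes as reported (black), under each other processing or model (blue ticks) and with 1 array left out (orange crosses), with dashed lines at 1.5-fold. *Pltp* stays between 1.35 and 1.58, and no value of the other 7 genes reaches 1.5-fold, with the extremes at -0.18 and 0.45.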

How the data were processed

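Total RNA of 8 livers was labeled with Cy3 and hybridized to one-color Agilent arrays. The authors deposited scanner tables made with Feature Extraction 10.7.1.1. They hold a processed signal per spot, an intensity on a linear scale with the background removed, and spot and local background medians. Per the file headers, flags of 0 or 1 and other codes mark control, outlier, saturated and well-above-background spots. They also deposited log2 values. For probes with 1 spot these matched log2 processed intensity less its 75th percentile on that array, apart from a constant offset per array. The offset was at most 0.0085, and beyond it the values of other probes differed by up to 0.54. The file headers name build mm9, while gene names and sequences come from RefSeq on GRCm38.p6 through transcript accessions, which named 32994 of 56605 probes. No probe sequences were used here, so cross-hybridization was not tested. The number of arrays sets the precision.

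Controls and outlier spots were left out, log2 processed signals were scaled to each array's 75th percentile, and 29067 probes, each well above background throughout WT, KO or both, were tested with limma 3.58.1 (lmFit, then eBayes; R 4.3.3; two-sided; Benjamini-Hochberg adjustment). The call at a fold over 1.5 and adjusted p under 0.2 follows the thresholds given in the main text of the paper, and whether its p was adjusted is not given in the sources used here. A gene was read from its brightest probe. Exact permutation tests used scipy 1.17.1. The fit was also run on simulated data. A further list of related genes is not reported here.

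All probes of the 8 genes are reported. From each other list, called genes and the 3 largest changes were named, and the rest only for their role, chosen after their values were seen. Members and lists were chosen with earlier results of these data known. Alternatives were normexp (offset 50, on the median spot signal), quantile and median scaling, the deposited log2 values, other filters, outliers kept, other eBayes options, a replicate block, each array left out, other thresholds, and averaging of a gene's probes.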

Additional observations from a re-analysis of the deposited data

Results flagged for a closer look

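In 4 of 34 groups of 4 arrays examined for the probes of the members and of the called pathway and marker genes, 1 mouse lay far from the other 3, and chance gives about 1 in 20 such groups. The groups share arrays and some share a gene, so they are not independent, and 4 of 34 was not tested against that rate. WT replicate 4 had 4.93 for *Abcg8*, where the remaining WT mice had 4.17 to 4.20. WT replicate 2 had 1.29 for *Pltp*, where the remaining WT mice had 0.82 to 0.88, and without that mouse its log2 change was 1.58. KO replicate 3 had 4.04 at the brighter *Cyp7b1* probe, where the remaining KO mice had 5.82 to 6.09, and 1.30 against 3.21 to 3.55 at the dimmer probe.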

How the results depend on the processing

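*Pltp* was called under all 18 alternatives, with log2 changes from 1.35 to 1.58 and a limma adjusted p of at most 0.0506, the latter in the fit with a replicate block. None of the 126 values of the other 7 members under the alternatives was called. They lay between -0.18 and 0.45, and 9 of them had the opposite sign to the reported value. Scaling by the median of each array gave -0.0086 for *Abcg8* and -0.0012 for *Nr1h3*, and averaging both probes gave 0.028 for *Nr1h2*. With 1 array left out, *Abcg8* ranged from -0.085 to 0.21 and *Abcg1* from -0.11 to 0.089. The number of members called was 1 throughout.

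Over all tested probes, the numbers of 273 higher and 211 lower became 180 and 65 under normexp, 122 and 131 with no filter on dim probes, 82 and 35 at an adjusted p under 0.05, 534 and 451 at an unadjusted p under 0.2, and 557 and 645 with no minimum fold. Where all 8 arrays had to be well above background, 125 were lower. With 1 array left out they ranged from 152 to 334 higher and from 98 to 276 lower. The causes were not tested. With no filter on dim probes the calls of *Srebf1*, *Scd1*, *Cyp7b1* and *Marco* were lost, and that of *Marco* also without WT replicate 3 or KO replicate 2.

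Same-numbered mice were not taken as pairs, since the labels do not say that a number marks a shared origin and the correlations of their deviations from the genotype means were 0.37, -0.11, 0.09 and 0.34, not all above 0.1. That 5 of 8 mice correlated best with their own number is a hint of pairing from the data and not from the design. The replicate block gave *Pltp* the same log2 change of 1.47 and called 327 probes higher and 265 lower.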
